A study of Mus musculus with 24 samples.

Results

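The genes described here are markers of alveolar type 1 cells, measured by RNA sequencing in the epithelial fraction of mouse lung organoids. The list was Ager, Hopx, Pdpn, Cav1, Rtkn2, Clic5 and Emp2, chosen by gene symbol, and the transcript with the highest average count in the 12 epithelial libraries stood for each gene. Of the 7 listed genes, 6 had a row in the count table, which held 14557 gene symbols in all, and Pdpn had none. Those 6 genes all passed the filter on low counts, so every listed gene with a row was tested.

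The study exposed organoids to nylon 6,6 fibers of 12 by 31 micrometers. Every culture combined 200000 EpCAM-positive primary lung cells from a wild-type female C57BL6 mouse with 200000 cells of CCL206, a mouse lung fibroblast line, in diluted Matrigel. The groups were untreated control wells, wells with 12000 fibers and wells with 30000 fibers, mixed in before seeding, with 4 libraries in each group from the same 4 mice (mouse 1 to 4). After 7 days, magnetic beads against EpCAM, an epithelial surface protein, were used to collect the epithelial fraction. The fibroblasts are a single established line, used in every culture. No animal was exposed.

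Alveolar type 1 cells are the flat cells that line most of the gas-exchange surface of the lung. They share a thin basement membrane with the capillaries, and they arise from alveolar type 2 cells, the cuboidal cells that make surfactant. Known markers include membrane receptors, proteins of caveolae (small flask-shaped pits of the plasma membrane), a homeodomain cofactor and regulators of the cytoskeleton. Most of these genes are not restricted to that cell type: Cav1 is also known from fibroblasts and endothelial cells, and Hopx and Emp2 from other epithelial cells.

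Library depth and makeup differed between the groups. Summed transcript counts were 21222034 to 28232472 in control, 20103389 to 31119155 with 12000 fibers and 6767842 to 9234052 with 30000 fibers, so values at 30000 fibers rest on the fewest reads. When 1 transcript per gene was counted, mitochondrial transcripts took 5.20% to 7.77% of counts in control, 5.33% to 6.91% with 12000 fibers and 14.3% to 16.3% with 30000 fibers. Short transcripts were relatively higher at 30000 fibers: the median log2 change against control was 0.53 in the shortest of 5 classes of transcript length and -0.23 in the longest, and at 12000 fibers it was 0.03 and -0.02. Epcam averaged 650.3 CPM (counts per 1e6 counts) in control, 484 with 12000 fibers and 239 with 30000 fibers, while Col1a1, a fibroblast collagen, averaged 295, 529 and 885 CPM in the same order. The cells that this collagen RNA came from were not tested. In bulk RNA, fewer cells of a type and less RNA per cell cannot be told apart.

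Start sites are shown for Cav1 and Hopx because each has more than 1 annotated start and the deposited transcript counts did not separate them. The windows run from 250 bases before to 50 bases after a RefSeq start (build GRCm38.p6), written 5′ to 3′ on the strand of the gene. Capitals mark CTCAAG or its reverse complement CTTGAG, the core letters bound by NKX2-1, a lung lineage transcription factor.
Cav1 window 1, chr6:17306085-17306384, + strand: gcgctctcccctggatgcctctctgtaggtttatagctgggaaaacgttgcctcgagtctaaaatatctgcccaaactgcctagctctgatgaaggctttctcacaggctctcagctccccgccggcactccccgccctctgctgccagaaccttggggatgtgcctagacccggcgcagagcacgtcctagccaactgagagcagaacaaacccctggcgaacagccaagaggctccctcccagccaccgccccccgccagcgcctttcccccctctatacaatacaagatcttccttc
Cav1 window 2, chr6:17307390-17307689, + strand: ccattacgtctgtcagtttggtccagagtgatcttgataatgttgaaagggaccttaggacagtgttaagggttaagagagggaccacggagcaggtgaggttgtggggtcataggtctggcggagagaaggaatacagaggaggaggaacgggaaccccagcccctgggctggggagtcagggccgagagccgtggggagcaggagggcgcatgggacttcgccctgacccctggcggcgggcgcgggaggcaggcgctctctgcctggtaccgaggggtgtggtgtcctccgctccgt
Hopx window 1, chr5:77115074-77115373, - strand: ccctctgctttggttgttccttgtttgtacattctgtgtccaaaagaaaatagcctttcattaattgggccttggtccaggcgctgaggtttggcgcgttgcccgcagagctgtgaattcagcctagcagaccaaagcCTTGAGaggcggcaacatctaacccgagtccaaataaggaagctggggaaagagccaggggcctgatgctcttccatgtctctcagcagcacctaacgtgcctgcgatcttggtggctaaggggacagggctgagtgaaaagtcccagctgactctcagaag
Hopx window 2, chr5:77095218-77095517, - strand: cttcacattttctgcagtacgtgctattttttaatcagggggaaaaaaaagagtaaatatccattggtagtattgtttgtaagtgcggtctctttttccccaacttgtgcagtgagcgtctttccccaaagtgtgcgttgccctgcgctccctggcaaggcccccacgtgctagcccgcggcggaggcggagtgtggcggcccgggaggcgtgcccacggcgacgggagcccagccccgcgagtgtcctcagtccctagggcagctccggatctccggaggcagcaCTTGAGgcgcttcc
Each Hopx window held 1 match and neither Cav1 window held any. The same letters, on either strand, were in 15.9% of all 32851 windows of this length. The TEAD core GGAATG, or CATTCC on the other strand, was in 14.7% of all windows and in none of the 4 shown. These matches describe letters only.

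Of the 6 type 1 markers measured, Cav1 and Rtkn2 fell at 12000 fibers and Cav1 and Emp2 fell at 30000 fibers against control, and none rose in either comparison. The fall of Emp2 and the lower values of the markers other than Cav1 at 30000 fibers turned on how libraries were scaled, and Clic5 was called higher there on another scale. A gene was called changed at an adjusted p under 0.05 in edgeR's quasi-likelihood test, with Benjamini-Hochberg adjustment over all 13759 genes tested. That rule called 38% of all genes at 12000 fibers, 18.7% higher and 19.3% lower, beside 2 of 6 markers. At 30000 fibers it called 65.6% of all genes, 32.2% higher and 33.4% lower, again beside 2 of 6 markers. Between the fiber numbers, 30000 against 12000, it called 55.4% of all genes, 28.3% higher and 27.1% lower, beside 1 marker higher (Cav1) and 2 lower (Ager and Emp2). The median log2 change of the 6 markers was -0.05 at 12000 fibers, -0.52 at 30000 fibers and -0.14 between the fiber numbers, where the median of all genes was -0.00, -0.03 and -0.01.

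**Figure D1:**
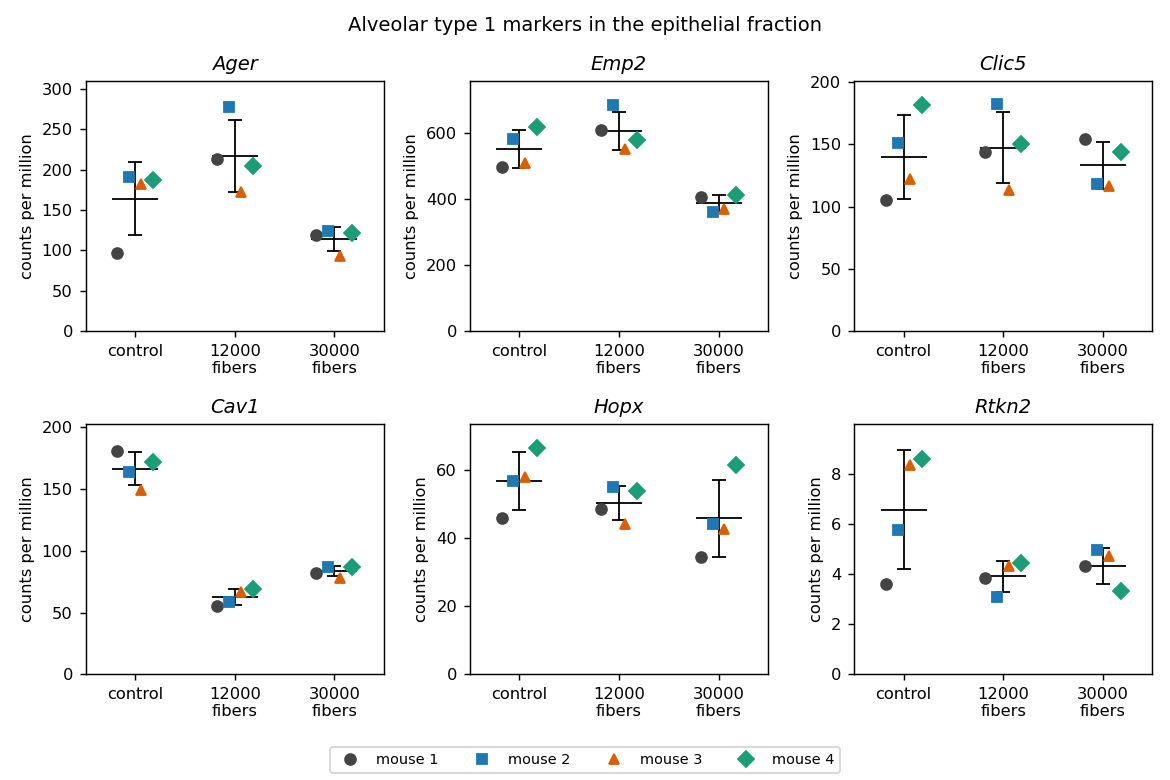
Level of each marker in CPM (vertical axis, from 0) in the 12 libraries, by fiber number; symbols mark the mouse, and the bar and whiskers are the mean and SD of 4 libraries. Cav1 is at 55.1 to 86.9 with fibers and at 149 to 181 in control, and Emp2 is lowest with 30000 fibers on this TMM scale.

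Ager encodes RAGE, a multiligand receptor of the immunoglobulin superfamily that is abundant on the basal membrane of type 1 cells. The representative transcript, Ager-201 (ENSMUST00000015596), is a protein-coding transcript of 11 exons on chromosome 17, 34597862 to 34600932, + strand (GENCODE M21, build GRCm38). It had 97.2, 191, 182 and 187 CPM in control, 213, 278, 172 and 204 CPM with 12000 fibers, and 119, 125, 92.7 and 121 CPM with 30000 fibers (mice 1 to 4). The libraries with 30000 fibers all lay below those with 12000 fibers, whereas the control libraries overlapped both groups: those of mice 2 to 4 lay within the 12000-fiber range, and that of mouse 1 lay within the 30000-fiber range. Against 12000 fibers, 30000 fibers gave a log2 change of -0.93 ± 0.23 (SE), a level 0.526 times as high (adjusted p = 0.00678, edgeR), lower in 4 of 4 mice. Of the 13 Ager transcripts, 12 were called lower in this comparison. All 13 share exons, so their counts and these calls are not independent. The exception, Ager-209 (ENSMUST00000174496), is protein-coding, shares 1343 of its 1347 bases with Ager-201 and ends 4 bases further 3′. Its counts were 95.7% ± 0.766 of those of Ager-201 in control, 95.2% ± 0.801 at 12000 fibers and 132% ± 3.95 at 30000 fibers (SD, n = 4 each). On Ager-209 the log2 change at 30000 fibers was -0.45 against 12000 fibers (adjusted p = 0.104, edgeR, over all transcripts) and -0.06 against control (adjusted p = 0.826), so the call and the size of the Ager change depend on which of these near-identical transcripts is read.

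Against control the Ager values did not pass the test. At 12000 fibers Ager averaged 217 ± 44.2 CPM, and 164 ± 44.8 CPM in control (SD, n = 4 each), a log2 change of 0.40 with a 95% interval of -0.09 to 0.89 (adjusted p = 0.183, edgeR). At 30000 fibers it averaged 114 ± 14.6 CPM, a log2 change of -0.53 against control (adjusted p = 0.0714, edgeR). That second result turned on the control library of mouse 1, on the transcript and on the method. Without that library the log2 change was -0.71 (adjusted p = 8.72e-04, edgeR). Of the 13 Ager transcripts, 4 were called lower in this comparison, with a smallest adjusted p of 0.0239 (edgeR, over all transcripts). DESeq2 called Ager lower too. Over all 32 alternatives run for this value the log2 change ran from -0.95 to 0.12, and the adjusted p, where there was a test, from 8.72e-04 to 0.826. Ager is in the shortest of the 5 length classes, and with the trend on transcript length removed the log2 change at 30000 fibers was -0.95 against control and -1.34 against 12000 fibers, values without a test.

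Emp2 encodes a small tetraspan membrane protein of the PMP22 family, which takes part in integrin trafficking. Emp2-201 (ENSMUST00000078357) has 5 exons on chromosome 16, 10281749 to 10313968, - strand. Its level was 496, 582, 510.0 and 618 CPM in control, 609, 685, 551 and 578 CPM with 12000 fibers, and 405, 362, 369 and 412 CPM with 30000 fibers. The libraries with 30000 fibers were the lowest and overlapped neither other group, while the 12000-fiber and control libraries overlapped. Emp2 fell by 0.51 ± 0.08 on the log2 scale at 30000 fibers against control (adjusted p = 2.03e-05, edgeR) and by 0.65 ± 0.08 against 12000 fibers (adjusted p = 1.84e-06, edgeR), in 4 of 4 mice each time. At 12000 fibers its log2 change was 0.13, with an interval of -0.03 to 0.30 (adjusted p = 0.206, edgeR).

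The fall of Emp2 at 30000 fibers depended on the scale. When libraries were scaled to the summed counts of 18 pan-epithelial genes instead of by TMM, the median of all genes rose by 0.62 at 30000 fibers against control and by 0.61 against 12000 fibers. The split of called genes against control was then 9005 higher and 1255 lower, where TMM gave 4434 higher and 4592 lower; between the fiber numbers it was 9245 higher and 484 lower, where TMM gave 3893 and 3728. On that scale Emp2 had a log2 change of 0.13 against control (adjusted p = 0.187, edgeR) and -0.02 against 12000 fibers (adjusted p = 0.849, edgeR). Ager was at 0.12 and -0.29 in the same 2 comparisons, Hopx at 0.33 and 0.48, Clic5 at 0.57 and 0.48 and Rtkn2 at 0.0354 and 0.76. Clic5 was then called higher than control at 30000 fibers (adjusted p = 0.00980, edgeR), and Hopx (adjusted p = 0.00830), Clic5 (0.0265) and Rtkn2 (0.0450) were called higher at 30000 than at 12000 fibers, as was Cav1 at 1.04 (7.38e-09). The counts on that scale were thus 1 marker higher and 1 lower at 30000 fibers against control, beside 65.4% of all genes higher and 9.12% lower, and 4 higher and none lower between the fiber numbers, beside 67.2% and 3.52%. Cav1 was at -0.35 against control (adjusted p = 0.00429, edgeR), so of the 6 markers Cav1 alone was called lower than control at 30000 fibers on both scales.

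Clic5 encodes a chloride intracellular channel protein that is linked to the actin cytoskeleton through ezrin. Clic5-201 (ENSMUST00000024755) has 6 exons on chromosome 17, 44188584 to 44280172, + strand. Its 12 values were 105, 151, 122 and 181 CPM in control, 143, 182, 113 and 151 CPM with 12000 fibers, and 154, 118, 117 and 144 CPM with 30000 fibers. All 3 groups overlapped. The log2 change was 0.07 at 12000 fibers, with an interval of -0.34 to 0.48 (adjusted p = 0.793, edgeR). At 30000 fibers it was -0.08 against control, with an interval of -0.51 to 0.36 (adjusted p = 0.748, edgeR), and -0.15 against 12000 fibers (adjusted p = 0.539, edgeR).

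Clic5-202 (ENSMUST00000233193), a retained-intron transcript inside the same gene, went another way. Its counts were 8.81% ± 1.72 of those of Clic5-201 in control, 8.10% ± 0.765 at 12000 fibers and 13.8% ± 3.18 at 30000 fibers (SD, n = 4 each). It rose by 0.59 on the log2 scale at 30000 fibers against control (adjusted p = 0.00142, edgeR, over all transcripts), where it had 41 to 60 counts per library.

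Cav1 encodes caveolin-1, the coat protein that shapes caveolae. On the TMM scale it had the largest change of the 6 markers in both comparisons with control; on the pan-epithelial scale the change of Clic5 at 30000 fibers, 0.57, was larger than that of Cav1, -0.35. The representative transcript Cav1-202 (ENSMUST00000115453) has 2 exons on chromosome 6, 17307640 to 17341452, + strand. It had 181, 164, 149 and 171 CPM in control, 55.1, 58.5, 66.2 and 69.0 CPM with 12000 fibers, and 82.3, 86.8, 78.0 and 86.9 CPM with 30000 fibers. No pair of groups overlapped: control was highest, 12000 fibers lowest and 30000 fibers between them, in every mouse. Cav1 fell by 1.42 ± 0.08 on the log2 scale at 12000 fibers, a level 0.373 times that of control (adjusted p = 7.19e-10, edgeR), and by 1.00 ± 0.08 at 30000 fibers, 0.501 times control (adjusted p = 2.03e-09, edgeR). Between the fiber numbers, 30000 against 12000, Cav1-202 rose by 0.43 ± 0.08 (adjusted p = 2.52e-04, edgeR).

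Cav1 had 10 transcripts in the table, and all 10 fell in both comparisons with control, by log2 changes of -1.42 to -1.08 at 12000 fibers and -2.64 to -0.996 at 30000 fibers. They share exons, so their counts are not independent. The rise between the fiber numbers was seen only in Cav1-202 and Cav1-201, which end at or 128 bases short of the 3′ end of the gene. Of the other 8 transcripts, which end 1023 to 33249 bases short of it, 5 were called lower at 30000 than at 12000 fibers, by log2 changes of -1.44 to -0.85, and 3 had -0.58 to -0.40 with adjusted p of 0.0573 to 0.167 (edgeR). With the counts of all transcripts summed, the log2 change between the fiber numbers was 0.12 (adjusted p = 0.192, edgeR), and over its 29 alternatives it ran from -1.44 to 1.04.

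**Figure D2:**
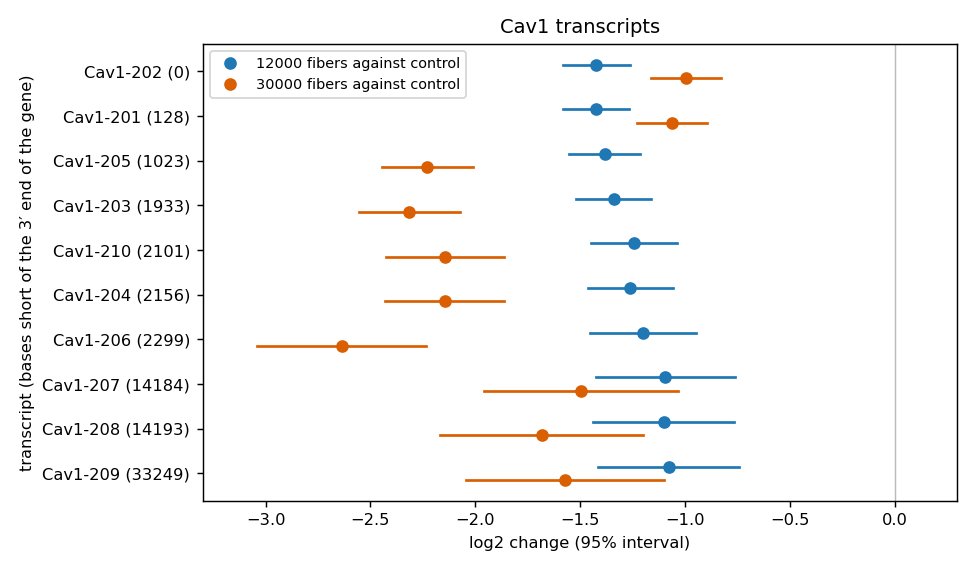
Log2 change with 95% interval (horizontal axis) of the 10 Cav1 transcripts at 12000 and at 30000 fibers against control, ordered by how many bases short of the gene's 3′ end each one stops. The changes at 12000 fibers stay between -1.42 and -1.08, while those at 30000 fibers are -1.06 and -0.996 for the first 2 transcripts and -2.64 to -1.50 for the other 8.

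The share of the shorter transcripts shows the same split directly. Cav1-205, which stops 1023 bases short of the 3′ end, had 41.1% ± 2.42 of the counts of Cav1-202 in control, 42.3% ± 3.13 at 12000 fibers and 17.4% ± 1.13 at 30000 fibers (SD, n = 4 each). The 30000-fiber libraries, at 16.6% to 19.1%, lay apart from the rest, at 38.4% and above. Cav1-201 starts 1305 bases upstream of Cav1-202, at the first of the Cav1 windows shown, and had 99.7% of its counts in control, 99.7% at 12000 fibers and 95.3% at 30000 fibers. The mitochondrial share of counts and the trend on transcript length, both given above, also set the 30000-fiber libraries apart, and their part in the split was not tested.

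Other genes of caveolae moved in both directions. Of 8 tested, 3 rose and 4 fell at 12000 fibers, and 2 rose and 4 fell at 30000 fibers. Their median log2 change was -0.15 at 12000 fibers and -0.24 at 30000 fibers. Scaled to pan-epithelial genes, 6 rose and 2 fell at 30000 fibers, beside 65.4% of all genes higher and 9.12% lower. Cav2, which forms hetero-oligomers with caveolin-1, had 118 to 143 CPM in control, 80.4 to 85.5 CPM with 12000 fibers and 85.7 to 111 CPM with 30000 fibers. It fell in both comparisons, with log2 changes of -0.63 and -0.39 (adjusted p = 2.15e-06 and 2.11e-04, edgeR), and had 0.25 at 30000 fibers on the pan-epithelial scale (adjusted p = 0.0177, edgeR). Cavin2, a caveola coat adaptor, fell by 0.49 at 12000 fibers (adjusted p = 6.88e-04, edgeR) and had -0.21 at 30000 fibers (adjusted p = 0.0931, edgeR). Ehd2, an ATPase at the caveola neck, rose by 0.43 at 12000 fibers (adjusted p = 2.85e-04, edgeR) and had -0.03 at 30000 fibers (adjusted p = 0.793, edgeR). Pacsin2, a membrane-bending protein, rose in both, by 0.47 and 0.27 (adjusted p = 1.17e-05 and 0.00178, edgeR). On the pan-epithelial scale Cavin2 was at 0.43, Ehd2 at 0.63 and Pacsin2 at 0.91 at 30000 fibers against control. Each was called higher there (adjusted p = 0.00521, 7.48e-06 and 6.27e-09, edgeR).

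Markers of cell types that also express Cav1 did not all go its way. All 10 basal airway cell genes fell at both fiber numbers, and their summed level was 2188 to 3588 CPM in control, 476 to 656 CPM with 12000 fibers and 254 to 329 CPM with 30000 fibers. Of 22 tested fibroblast genes, 21 rose and none fell at each fiber number: Vim, an intermediate filament of fibroblasts, averaged 159.6 CPM in control, 351 CPM with 12000 fibers and 795 CPM with 30000 fibers. Endothelial genes were low: 5 of 10 had a row, Cdh5 and Cldn5 had none, and the sum was at most 31.4 CPM in any library. Of those 5, 1 rose at 12000 fibers and 1 fell at 30000 fibers. Mesothelial genes had 2 of 6 tested, Msln and Upk1b, which both fell at each fiber number, and of 3 tested immune genes 1 rose at 12000 fibers and 2 rose at 30000 fibers. Lymphatic endothelial genes had 2 of 5 tested, of which none changed at 12000 fibers and 1, Flt4, fell at 30000 fibers. These counts are on the TMM scale, beside 18.7% of all genes higher and 19.3% lower at 12000 fibers, and 32.2% and 33.4% at 30000 fibers. Scaled to pan-epithelial genes, at 30000 fibers all 10 basal genes fell, all 22 fibroblast genes rose and 4 of 5 endothelial genes rose. That was beside 65.4% of all genes higher and 9.12% lower, and the other 3 lists kept their counts there. The part of any of these cell types in the Cav1 values was not tested.

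Hopx encodes a small homeodomain protein that does not bind DNA itself and acts as a transcriptional cofactor. Hopx-201 (ENSMUST00000081964) has 3 exons on chromosome 5, 77086988 to 77115121, - strand, and shares 157 bases with Hopxos on the opposite strand. The sources used here do not give the strand setting of the counting, and without it reads of the 2 genes there cannot be told apart. Its level was 45.7, 56.5, 58.0 and 66.3 CPM in control, 48.6, 54.9, 44.1 and 53.7 CPM with 12000 fibers, and 34.5, 44.1, 42.7 and 61.5 CPM with 30000 fibers. The groups overlapped, and in the 30000-fiber group mouse 4 stood above the other 3 libraries.

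The log2 change of Hopx was -0.17 at 12000 fibers, with an interval of -0.45 to 0.11 (adjusted p = 0.333, edgeR), and -0.31 at 30000 fibers, with an interval of -0.62 to 0.01 (adjusted p = 0.0838, edgeR). Hopx was lower at 30000 fibers than in the control of the same mouse in 4 of 4 mice. With the mouse as a replicate block the log2 change at 30000 fibers was -0.31 with an adjusted p of 0.0114 (edgeR). Over 22 alternatives it ran from -0.82 to 0.33, and the adjusted p, where there was a test, from 0.00421 to 0.344. The value of 0.33 was on the pan-epithelial scale (adjusted p = 0.0532, edgeR). Hopx was called lower without the control library of mouse 1 (-0.40, adjusted p = 0.0150, edgeR) and without the 30000-fiber library of mouse 4 (-0.48, adjusted p = 0.00421, edgeR). Hopx is also a short transcript, and with the length trend removed its log2 change at 30000 fibers was -0.82, a value without a test. Hopx-202 and Hopx-203, which start 19844 and 19868 bases downstream near the second Hopx window, had counts within 2% of those of Hopx-201 in every library, so the counts do not show which start was used.

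Rtkn2 encodes rhotekin-2, an intracellular signalling protein. Its highest transcript, Rtkn2-206 (ENSMUST00000147556), has 15 exons on chromosome 10, 67979698 to 68059740, + strand, is annotated as a target of nonsense-mediated decay, and overlaps Gm16212 on the opposite strand by up to 109 bases. Rtkn2 was the rarest of the 6 markers, with 31 to 85 counts per library in control, 23 to 43 with 12000 fibers and 10 to 16 with 30000 fibers. It had 3.59, 5.74, 8.34 and 8.60 CPM in control, 3.86, 3.06, 4.32 and 4.42 CPM with 12000 fibers, and 4.31, 4.94, 4.71 and 3.34 CPM with 30000 fibers. The groups overlapped through the control library of mouse 1, which lay among the fiber libraries, while the other 3 controls lay above all 8 of them.

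Rtkn2 fell by 0.74 ± 0.23 on the log2 scale at 12000 fibers (adjusted p = 0.0159, edgeR), in 3 of 4 mice. The call was lost without the control library of mouse 4 (-0.58, adjusted p = 0.0760, edgeR) and without the 12000-fiber library of mouse 2 (-0.65, adjusted p = 0.0531, edgeR). Over 24 alternatives the adjusted p, where there was a test, ran from 5.83e-04 to 0.0760. It was also not made on the protein-coding transcripts Rtkn2-202 (-0.57, adjusted p = 0.0566, edgeR) and Rtkn2-204 (-0.57, adjusted p = 0.0561, edgeR). At 30000 fibers the log2 change was -0.60 (adjusted p = 0.0719, edgeR), and -0.80 without the control library of mouse 1 (adjusted p = 0.00555, edgeR). There 1 of the 5 transcripts was called lower, Rtkn2-203 (-0.78, adjusted p = 0.0286, edgeR, over all transcripts). Against 12000 fibers, 30000 fibers gave 0.15 with an interval of -0.50 to 0.79 (adjusted p = 0.706, edgeR), which at these counts leaves the direction undetermined.

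**Figure D3:**
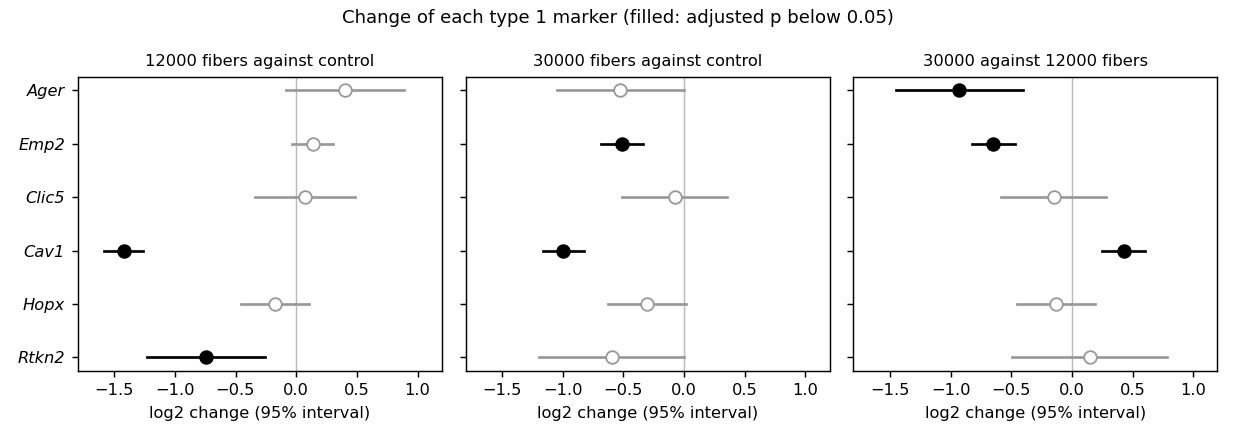
Log2 change (horizontal axis) with its 95% interval for each of the 6 markers in the 3 comparisons; filled points have an adjusted p under 0.05. Cav1 is called in all 3, Emp2 in both comparisons of 30000 fibers, Ager only in 30000 against 12000 fibers and Rtkn2 only in 12000 fibers against control, all on the TMM scale; scaled to pan-epithelial genes, Ager and Emp2 lose their calls, Clic5 is called higher at 30000 fibers against control, and Hopx, Clic5 and Rtkn2 are called higher at 30000 against 12000 fibers.

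One control library affected several markers. In the control of mouse 1, Ager, Hopx, Rtkn2, Clic5 and Emp2 were each at the lowest of the 4 control values, while Cav1 was at the highest. The same library had the lowest summed level of type 2 genes, 2193 CPM, with 3707 to 4391 CPM in the other 3 controls, and the highest summed basal genes, 3588 CPM. Without it, 5 of the 6 markers, all but Clic5, were called lower at 30000 fibers than in control, where 2 were called with it. In that fit 33% of all genes were called lower. On the pan-epithelial scale with all libraries, 4 of these 5 markers (Ager, Hopx, Rtkn2 and Emp2) had positive log2 changes, none of them called. Its part in the marker values beyond this was not tested.

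Per kilobase of transcript, the order of the levels in control was Emp2 at 160 ± 16.9, Ager at 120 ± 32.7, Cav1 at 60.6 ± 4.88, Hopx at 44.9 ± 6.69, Clic5 at 23.8 ± 5.71 and Rtkn2 at 1.48 ± 0.534 CPM per kilobase (SD, n = 4). The ranges of neighbours in that order did not overlap. Among 13669 genes with a length, Emp2 ranked 204 from the top in control, Ager 302 and Rtkn2 11498. At 12000 fibers Emp2 and Ager overlapped, at 160 to 199 and 126 to 203 CPM per kilobase. Cav1, at 20.1 to 25.1, then lay below Hopx, at 34.9 to 43.5, and overlapped Clic5, at 19.3 to 31.05. At 30000 fibers Emp2 was again above Ager without overlap, at 105 to 120 and 67.7 to 90.9, while Cav1, at 28.4 to 31.6, lay within the range of Hopx, at 27.3 to 48.7 CPM per kilobase. The length trend at 30000 fibers enters these levels too.

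Other genes known from type 1 cells moved in both directions. Of 25 further type 1 genes, 23 were tested: 9 rose and 8 fell at 12000 fibers, with a median log2 change of 0.01, and 5 rose and 14 fell at 30000 fibers, with a median of -0.49. Scaled to pan-epithelial genes, 10 rose and 4 fell at 30000 fibers, beside 65.4% of all genes higher and 9.12% lower. The median of the list was then 0.14, where that of all genes was 0.62. Under TMM the median of all genes was -0.03. The list median thus lay below that of all genes on both scales, and its sign turned on the scale. Aqp5, a water channel of type 1 and secretory cells, averaged 870.1 ± 153 CPM in control, 353 ± 8.50 CPM with 12000 fibers and 262 ± 30.9 CPM with 30000 fibers (SD, n = 4 each). It fell in both comparisons with control on either scale, with log2 changes of -1.30 and -1.73 under TMM (adjusted p = 1.20e-07 and 3.82e-10, edgeR). Gprc5a, an orphan receptor of lung epithelium, rose by 0.65 at 12000 fibers (adjusted p = 1.22e-05, edgeR). At 30000 fibers it had 0.18 under TMM (adjusted p = 0.0790, edgeR) and 0.83 on the pan-epithelial scale (adjusted p = 5.94e-08, edgeR). Cryab, a small heat shock protein, rose in both, by 1.21 and 2.01 (adjusted p = 4.20e-06 and 4.09e-09, edgeR), and averaged 28.6 CPM in control, 66.1 CPM with 12000 fibers and 115 CPM with 30000 fibers.

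Regulators of the type 1 fate were likewise split. Of 11 transcription factors and coactivators, 3 rose and 4 fell at 12000 fibers, and 4 rose and 6 fell at 30000 fibers. Scaled to pan-epithelial genes, 6 rose and 1 fell at 30000 fibers, beside 65.4% of all genes higher and 9.12% lower. Wwtr1, which encodes the coactivator TAZ, averaged 157 CPM in control, 204 CPM with 12000 fibers and 260.1 CPM with 30000 fibers, and rose by 0.37 and 0.72 on the log2 scale (adjusted p = 3.40e-04 and 3.88e-08, edgeR). Gata6, a lung lineage factor, rose by 0.71 and 0.55 (adjusted p = 1.65e-06 and 2.14e-05, edgeR). Tead3, a DNA-binding partner of TAZ, fell with log2 changes of -0.64 and -0.85 (adjusted p = 2.03e-06 and 4.85e-08, edgeR), and Klf5, a zinc finger factor, fell with -0.60 and -0.64 (adjusted p = 1.33e-05 and 2.14e-06, edgeR). On the pan-epithelial scale neither was called at 30000 fibers, with Tead3 at -0.20 (adjusted p = 0.0845, edgeR) and Klf5 at 0.000907 (adjusted p = 0.994, edgeR).

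The neighbouring alveolar states were described for comparison. Of 12 type 2 genes, 2 rose and none fell at 12000 fibers, and 7 rose and 2 fell at 30000 fibers. On the pan-epithelial scale 11 rose and none fell at 30000 fibers, beside 65.4% of all genes higher and 9.12% lower. Sftpc, the surfactant protein that marks type 2 cells, averaged 1671 CPM in control, 2817 CPM with 12000 fibers and 3599 CPM with 30000 fibers. Its log2 change against control was 0.75 at 12000 fibers (adjusted p = 0.0643, edgeR) and 1.11 at 30000 fibers (adjusted p = 0.00675, edgeR). Of 12 genes of the transitional state between type 2 and type 1 cells, 5 rose and 1 fell at 12000 fibers, and 4 rose and 5 fell at 30000 fibers. On the pan-epithelial scale 7 rose and 1 fell at 30000 fibers, beside the same shares of all genes. Krt8, which was among those that rose, and Krt18 are also among the 18 genes that set this scale. Cldn4, a tight junction claudin of that state, rose by 0.69 at 12000 fibers (adjusted p = 4.20e-06, edgeR) and fell by 0.71 at 30000 fibers (adjusted p = 7.31e-07, edgeR), where the pan-epithelial scale gave -0.07 (adjusted p = 0.501, edgeR). Krt19, a keratin of that state and of airway cells, fell in both, with log2 changes of -0.63 and -1.58 (adjusted p = 7.52e-06 and 3.60e-12, edgeR). On the pan-epithelial scale Krt19 was at -0.94 at 30000 fibers (adjusted p = 8.07e-10, edgeR). Lgals3 and Fosl1, also on this list, were at 1.53 and 2.86 there (adjusted p = 1.59e-13 and 7.84e-11, edgeR).

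**Figure D4:**
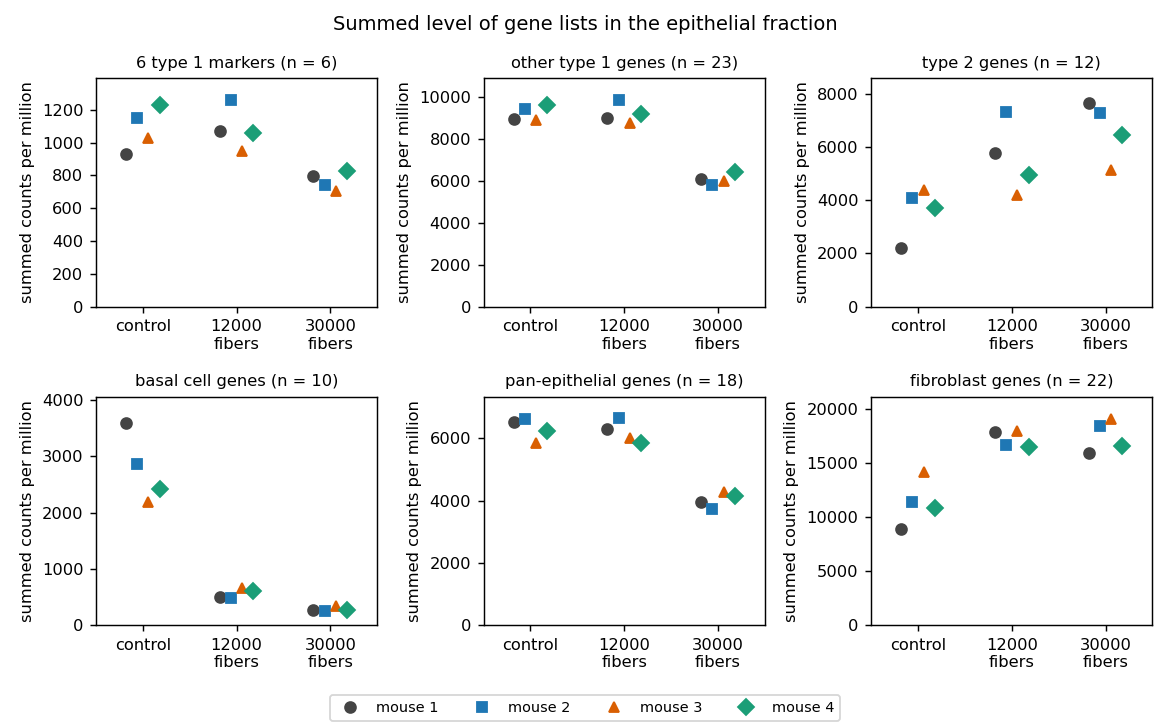
Summed CPM on the TMM scale (vertical axis, from 0) of 6 gene lists in the 12 libraries by fiber number. Symbols mark the mouse, and n is the number of tested genes in the list. The 6 type 1 markers sum to 929 to 1232 in control, 950 to 1261 with 12000 fibers and 704 to 828 with 30000 fibers, while basal cell genes sum to at most 656 with fibers and to 2188 or more in control.

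The sum over the 6 markers was 929 to 1232 CPM in control, 950 to 1261 CPM with 12000 fibers and 704 to 828 CPM with 30000 fibers. The pan-epithelial genes summed to 5847 to 6611 CPM in control, 5838 to 6639 CPM with 12000 fibers and 3722 to 4271 CPM with 30000 fibers. In both sums, which are on the TMM scale, the 30000-fiber libraries were the lowest and did not overlap the other groups. Neither sum was tested. Emp2 alone averaged 552 CPM of a mean marker sum of 1085 CPM in control, and 387 of 768 CPM with 30000 fibers. On the pan-epithelial scale the median log2 change of the 6 markers at 30000 fibers against control was 0.13.

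The 6 markers differed among themselves in profile across the 12 libraries. Profiles were compared by the root mean square difference of centred log2 CPM. The closest pairs were nearly tied: Ager and Emp2 at 0.262, Hopx and Clic5 at 0.266, Clic5 and Emp2 at 0.269, and Hopx and Emp2 at 0.272. The farthest pair was Ager and Cav1 at 0.85. Among 11965 genes, those most like Ager were Arhgap45 at 0.15, Akap5 at 0.16 and Limch1 at 0.17, and Akap5 is itself on the list of further type 1 genes. Closest to Emp2 were Slc44a2 at 0.07, Trim3 at 0.08 and Wwc1 at 0.08. For Clic5 these were Prss8 at 0.09, Mal2 at 0.13 and Tspan2 at 0.14, and for Hopx they were Clp1 at 0.12, Czib at 0.13 and Zfp324 at 0.14. Cav1 was most like Rnf128 at 0.16, Mki67, a proliferation marker, at 0.17 and Arhgap32 at 0.18. Rtkn2, the rarest marker, had no gene as close, with Pmaip1 at 0.21, Pdss2 at 0.27 and Lag3 at 0.27. These genes were ranked on the same libraries, and the distances are a description.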

How the data were processed

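RNA sequencing counts of the 12 epithelial libraries were used. The deposited values were raw counts per Ensembl transcript, whole numbers that the authors had neither normalized nor pooled. The submitters' processing notes name HISAT2 2.1.0, cutadapt 1.12, bcl2fastq, FastQC and the build mm10, with no order. The sources used here do not give the counting program, annotation release, strand setting or barcode use. Isoforms share exons, and the second transcript of a gene had a median of 88.0% of the count of the first, so 1 transcript per gene was used. The 12 fibroblast columns held 107814 entries for 71081 identifiers and were not used for genes.

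Groups and mouse numbers came from the sample titles. The members, lists and tests were chosen with earlier results of these data known. All 12 libraries entered a single fit in edgeR 4.0.16 (R 4.3.3) with filterByExpr, TMM and the robust quasi-likelihood F test, leaving 9 residual degrees of freedom. Over 13759 genes, an adjusted p (Benjamini-Hochberg) under 0.05 was called. CPM use TMM-scaled totals of the representative transcripts, which were 2799765 to 10583357. Standard errors come from the F statistic. Per the labels the 4 isolations came from 4 mice, so mouse number pairs the libraries, and same-mouse deviations had r of -0.03 to 0.18 over 12763 genes. Named genes were all members, up to 4 genes per list by smallest p at 12000 fibers among those called in either comparison with control, Epcam, Col1a1, Sftpc, and the 3 genes most like each member. Vim, Ager-209, Clic5-202 and Cav1-205, among transcripts and markers, were named after their values were seen. Coordinates and lengths are from GENCODE M21 (GRCm38, the assembly of mm10). The alternatives were DESeq2 1.42.0, upper quartile scaling, scaling to pan-epithelial genes, no filter, summed or other transcripts, a mouse block, 2 groups only, the length trend removed and each library left out. The fit was tested on simulated data.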

Additional observations from a re-analysis of the deposited data

Results flagged for a closer look

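In 2 of the 18 groups of 4 values checked (6 markers in 3 groups), a library stood apart from the other 3 by Dixon's test at the 95% level, which chance does in about 1 in 20 groups. Ager in the control of mouse 1 was at 97.2 CPM, and the gap to the next control was 0.901 of the range of the group. Ager in the 30000-fiber library of mouse 3 was at 92.7 CPM, with a gap of 0.829 of the range, at the critical value.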

How the results depend on the processing

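The number of markers called against control at 30000 fibers was 2 to 5 with each library left out in turn, and the 5 came without the control library of mouse 1. At 12000 fibers it was 1 to 2, and the 1 came without the control library of mouse 4 or the 12000-fiber library of mouse 2. Between the fiber numbers it was 3 each time. Genes called over the table ranged over 4441 to 5414, 8605 to 9059 and 7067 to 7901 in these fits. Upper quartile scaling, no filter on low counts and fitting only the groups compared changed no member call or direction. With DESeq2, Ager at 30000 fibers against control was also called (-0.52, adjusted p = 0.0106). The replicate block by mouse added Hopx at 30000 fibers (-0.31) and changed no other member call, and it gave 5521, 9141 and 7769 called genes, where the fit without it gave 5231, 9026 and 7621.

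Directions reversed under pan-epithelial scaling for Ager (0.12), Hopx (0.33), Rtkn2 (0.0354), Clic5 (0.57) and Emp2 (0.13) at 30000 fibers against control and for Hopx (0.48) and Clic5 (0.48) between the fiber numbers. Summed transcripts reversed Clic5 at 30000 fibers (0.10) and, between the fiber numbers, Clic5 (0.0167) and Hopx (0.00162). Other transcripts reversed Emp2 (0.49 and 0.45) and Clic5 (0.59 and 0.57) at 30000 fibers against control and against 12000 fibers, Rtkn2 (-0.13) between the fiber numbers, and Cav1 between the fiber numbers (-0.98, -0.88, -0.85, -1.44, -0.40, -0.58, -0.49 and -0.90). The Emp2 values came from a retained-intron transcript with 2 to 7 counts per library at 30000 fibers, and were not called (adjusted p = 0.365 and 0.420, edgeR). Leaving out a library moved Clic5 at 12000 fibers between -0.0419 and 0.224, with -0.0419 without the control of mouse 1 and -0.0417 without the 12000-fiber library of mouse 2, and at 30000 fibers between -0.194 and 0.0718, with 0.0718 without the control of mouse 4. With the length trend removed, 12 member results kept their direction and shifted by less than the SD within groups. The other 6 changed direction or shifted by more, and these values have no test. The cause of these changes was not tested. The shallower libraries limit the values at 30000 fibers, most of all for Rtkn2.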
